A study of Rattus norvegicus with 6 samples.

Results

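The epithelial sodium channel of the kidney and the genes that regulate it were followed through an infusion of dDAVP and its withdrawal. The 8 genes were fixed by name: the channel subunits Scnn1a, Scnn1b and Scnn1g, the kinases Sgk1 and Wnk1, the mineralocorticoid receptor Nr3c2, the steroid-converting enzyme Hsd11b2 and the protease Prss8. Each was found on the array by a probe set carrying its symbol alone, and where a gene had more than 1 such probe set the one with the highest mean was used, so all 8 of 8 were measured among 14168 genes. Total RNA of the inner medulla, in which the collecting ducts of the kidney end, had been measured on 6 whole-transcript gene arrays from male Sprague-Dawley rats of 200 to 250 g. In the withdrawal group (2 arrays) rats carried a subcutaneous osmotic minipump giving 40 ng/h of dDAVP for 5 d, the pump was taken out under light enflurane anaesthesia, and tissue was collected after another 3 h. The dDAVP group (2 arrays) had the same infusion for 5 d without removal of the pump, and the vehicle group (2 arrays) had saline at 1 µl/h for 5 d. dDAVP (desmopressin) is a vasopressin analogue that acts on the V2 receptor, found on collecting duct cells. All rats received a fixed ration of standard diet with free access to water. The tissue was whole inner medulla, not isolated collecting ducts, so a lower signal from fewer cells of a type and one from less RNA per cell cannot be told apart. The labels describe a removal under anaesthesia for the withdrawal group only, and stopping dDAVP and undergoing this procedure cannot be told apart. Whether both arrays of a group came from different rats is not stated, and the p-values then reflect only how far these arrays differ, which may be technical.

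The channel lets sodium cross the apical membrane of principal cells of the collecting duct, where it sets the last step of sodium reabsorption. It is assembled from homologous alpha, beta and gamma subunits. Aldosterone acts through the mineralocorticoid receptor to raise the alpha subunit and the kinase SGK1. SGK1 phosphorylates the ubiquitin ligase NEDD4-2, which otherwise binds the channel and has it taken up from the membrane. The enzyme HSD11B2 inactivates glucocorticoids, so that they do not occupy the receptor in these cells, and prostasin, the product of Prss8, promotes cleavage and opening of the channel. Vasopressin, through cAMP, moves the channel to the membrane and in the rat kidney cortex and outer medulla is known to raise the beta and gamma subunits.

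Promoters of Scnn1b, Scnn1g and Sgk1, members whose levels ran together or opposite across these same arrays, are shown first. Of the 8 genes 4 had an entry in the RefSeq promoter table of build GRCr8, with 3 start sites for Sgk1. Hsd11b2, whose level as deposited also ran with those of Scnn1a and Scnn1g, had no entry, nor had Scnn1a. The genes of the beta and gamma subunits follow each other as neighbours among the coding genes of chromosome 1, on the same strand. The 250 bases before the start of Scnn1b (chr1:185861126-185861375, plus strand), of Scnn1g (chr1:185735975-185736224, plus strand) and of the most downstream of the Sgk1 starts (chr1:24804832-24805081, minus strand) are printed 5′ to 3′. Capitals mark every match on either strand to a motif that was searched.
Scnn1b: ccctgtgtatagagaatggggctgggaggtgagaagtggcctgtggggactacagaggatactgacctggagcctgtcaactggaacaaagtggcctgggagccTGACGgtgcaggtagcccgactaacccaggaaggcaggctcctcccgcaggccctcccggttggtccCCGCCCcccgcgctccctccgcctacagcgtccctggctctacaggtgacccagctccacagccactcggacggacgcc
Scnn1g: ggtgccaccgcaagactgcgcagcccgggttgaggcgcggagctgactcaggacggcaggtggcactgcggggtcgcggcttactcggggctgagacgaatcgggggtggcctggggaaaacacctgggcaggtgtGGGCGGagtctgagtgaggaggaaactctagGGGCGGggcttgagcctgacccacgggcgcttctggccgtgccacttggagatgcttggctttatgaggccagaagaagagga
Sgk1: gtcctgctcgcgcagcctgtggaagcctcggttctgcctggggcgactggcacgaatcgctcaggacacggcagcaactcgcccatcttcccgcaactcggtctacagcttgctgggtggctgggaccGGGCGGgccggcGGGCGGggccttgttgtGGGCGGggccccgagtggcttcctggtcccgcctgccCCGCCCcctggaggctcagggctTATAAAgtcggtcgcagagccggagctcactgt
The motifs searched were the steroid receptor element, AGAACA and TGTTCT spaced by 3 bases, and its core AGAACA, the cAMP response element TGACGTCA and its core TGACG, the GC box GGGCGG and the TATA box TATAAA, each core lying inside its full element. The Scnn1b window held 1 GC box and 1 cAMP core, which lay 146 bases before the start. The Scnn1g window held 2 GC boxes and none of the other motifs. The printed Sgk1 window held 4 GC boxes and a TATA box 33 bases before the start. The windows of its other starts differed: the most upstream held a TATA box 55 bases before the start and 0 GC boxes, and the middle one 2 GC boxes and 0 TATA boxes. Among all 33469 promoter windows of this length, 30.5% held a GC box, 12.9% a TATA box, 18.2% a cAMP core, 1.59% the full cAMP element, 17.5% a steroid core and 0.012% the full steroid element. Both subunit windows were GC-rich at 65.6%, against a median of 51.2% over all windows. The printed Sgk1 window was at 69.6%, and its most upstream and middle starts were at 39.2% and 49.6%. The Wnk1 window, which is not printed, was at 70.8% and held none of the motifs. A match of letters is a description of the window and not a binding site.

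The arrays of the series differed in brightness, which touches every difference given here. Over all probe sets the median intensity was 182 and 181 for withdrawal, 156 and 165 for dDAVP, and 182 and 175 for vehicle. Taken over all genes, the median log2 difference was 0.14 for withdrawal against dDAVP, -0.11 for dDAVP against vehicle and 0.03 for withdrawal against vehicle. Differences are as deposited unless said to be after loess, which stands for cyclic loess, a normalization that brings the median of all genes to within 0.01 of 0 in each comparison. dDAVP replicate 1 was the lowest of the 6 arrays in 45.3% of all genes. Vehicle replicate 1 and dDAVP replicate 2 together lay above or together below the other 4 arrays in 23.6% of all genes. Markers of collecting duct principal cells were measured on every array, with the water channel Aqp2 between 13.14 and 13.40 and the sodium pump regulator Fxyd4 between 12.81 and 12.95 on the log2 scale. The 6 proximal tubule markers lay between 6.37 and 7.64 on that scale. The summed intensity of the 9 principal cell markers was 32496 to 35446 in the withdrawal arrays, 33102 to 35895 in dDAVP arrays and 31416 to 36099 in the vehicle arrays, so the groups overlapped in it. For the distal convoluted and connecting tubule, segments that also carry the channel, 5 of 6 markers were measured, between 5.91 and 7.67 on the log2 scale. These markers were dim, all below the median gene of each array, which lay between 7.834 and 7.997, and their range overlapped that of the proximal tubule markers. Their summed intensity was 520 to 558 in the withdrawal arrays, 445 to 447 in dDAVP arrays and 494 to 518 in the vehicle arrays. These groups did not overlap, in the order of means seen for the beta and gamma subunits and for array brightness as well. Whether cells of these segments were present in the tissue, and their part in the results, was not tested. The median log2 difference of these markers was 0.28 for withdrawal against dDAVP and -0.18 for dDAVP against vehicle, and 0.07 and -0.02 after loess. For the urothelium 5 of 7 markers were measured, between 6.41 and 8.62 on the log2 scale, with a summed intensity of 983 and 1000 (replicates 1 and 2) in withdrawal, 700 and 1083 in dDAVP and 1023 and 857 in vehicle. This sum, like the beta and gamma subunits, was lowest in dDAVP replicate 1 and next in vehicle replicate 2, whereas its highest array was dDAVP replicate 2. The median log2 difference of these markers was 0.26 for withdrawal against dDAVP and -0.12 for dDAVP against vehicle (0.12 and -0.0040 after loess), and their part in the results was not tested.

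None of the 8 genes passed limma's test at an adjusted p of 0.05 in any comparison, and 0 did so at an unadjusted p under 0.05 with all 6 arrays as deposited. The unadjusted count changed with the processing. Without dDAVP replicate 2 it was 2 members, Scnn1b and Scnn1g, in dDAVP against vehicle, beside 1577 of all 14168 genes, and the same 2 in withdrawal against dDAVP, beside 1855 genes. In withdrawal against dDAVP it was also 3 (Scnn1b, Scnn1g and Sgk1) without both vehicle replicate 1 and dDAVP replicate 2, beside 2617 genes. There it was 1 (Nr3c2) without dDAVP replicate 1, beside 1624 genes, and with array medians subtracted, beside 1266. Without withdrawal replicate 2 it was 1 (Hsd11b2) in withdrawal against dDAVP, beside 773 genes, and 1 (Wnk1) in withdrawal against vehicle, beside 117. Among all genes tested the adjusted threshold was passed by 0% in each comparison, and the unadjusted one by 19% in withdrawal against dDAVP, 7.43% in dDAVP against vehicle and 1.79% in withdrawal against vehicle. The smallest adjusted p of a member was 0.280 for withdrawal against dDAVP, 0.580 for dDAVP against vehicle and 0.995 for withdrawal against vehicle. The F-test over the groups gave members adjusted p-values from 0.512 for Scnn1g to 0.931 for Sgk1. From the lowest to the highest of the 6 arrays a member ranged over 1.17-fold for Prss8, 1.38 to 1.47-fold for 6 others and 1.74-fold for Hsd11b2. With 2 arrays a group, precision is low throughout.

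**Figure D1:**
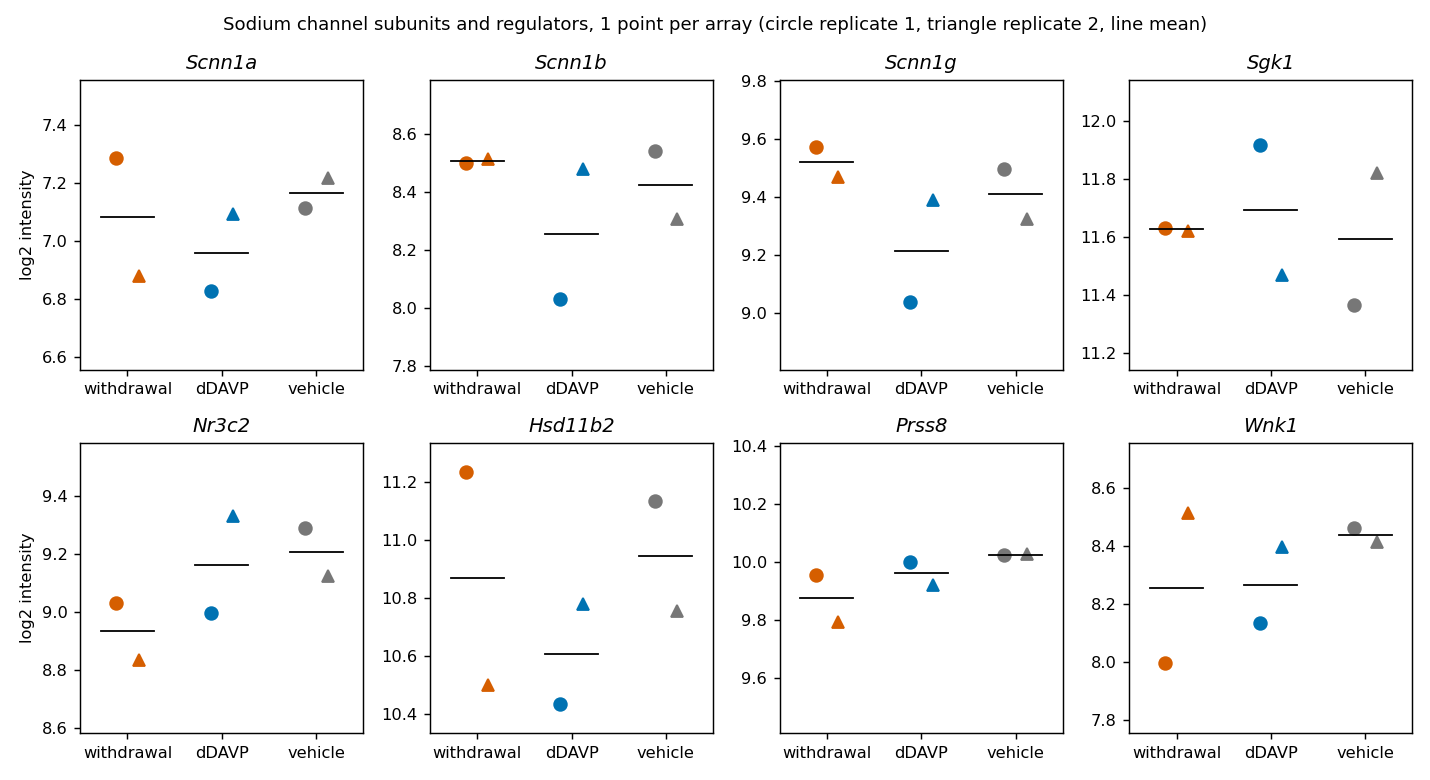
Log2 intensity of the 8 genes (vertical axes, each spanning 1 log2 unit) in the withdrawal, dDAVP and vehicle groups (horizontal axes). Circles are replicate 1, triangles replicate 2 and lines the mean of 2 arrays; dDAVP replicate 1 is the lowest point for Scnn1a, Scnn1b, Scnn1g and Hsd11b2 and the highest for Sgk1.

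The gamma subunit Scnn1g (probe set 10710580) showed the smallest p of the members. The log2 intensities were 9.57 and 9.47 in the withdrawal arrays, 9.04 and 9.39 in dDAVP arrays and 9.50 and 9.33 in the vehicle arrays. Both withdrawal arrays lay above both dDAVP arrays, with dDAVP replicate 1 the lowest of all 6, while the dDAVP and vehicle arrays overlapped. The means were 9.52 ± 0.07 in withdrawal and 9.22 ± 0.25 in dDAVP (SD, n = 2 each), a log2 difference of 0.31 ± 0.14 (SE, limma unadjusted p = 0.0747, adjusted p = 0.280). This is 1.24-fold, with a 95% interval from 0.972 to 1.57-fold, and 0.29 on the log2 scale after cyclic loess. With array medians subtracted it shrank to 0.18. Without dDAVP replicate 1 the difference was 0.13, and without dDAVP replicate 2 it was 0.48. Against the vehicle mean of 9.41 ± 0.12, the log2 difference was -0.20 ± 0.14 for dDAVP (adjusted p = 0.580, 95% interval -0.54 to 0.15) and 0.11 ± 0.14 for withdrawal (adjusted p = 0.995, 95% interval -0.24 to 0.46). The value for dDAVP against vehicle was -0.08 with array medians subtracted, -0.02 without dDAVP replicate 1 and -0.37 without dDAVP replicate 2. That for withdrawal against vehicle was 0.20 without vehicle replicate 1 and 0.02 without vehicle replicate 2. The order of the group means was withdrawal, vehicle, dDAVP, and no neighbours in it differed beyond their spread.

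The beta subunit Scnn1b (probe set 10710595) had the same order of group means as the gamma subunit. It measured, on the log2 scale, 8.50 and 8.51 in the withdrawal arrays, 8.03 and 8.48 in dDAVP arrays and 8.54 and 8.31 in the vehicle arrays. The withdrawal arrays again lay above the dDAVP arrays, above dDAVP replicate 2 by a narrow margin, and within the range of the vehicle arrays. The difference of withdrawal against dDAVP was 0.25 ± 0.17 on the log2 scale (adjusted p = 0.386), 1.19-fold with a 95% interval from 0.900 to 1.58-fold, and 0.18 after loess. It was 0.13 with array medians subtracted, 0.03 without dDAVP replicate 1 and 0.48 without dDAVP replicate 2. For dDAVP against vehicle the log2 difference was -0.17 ± 0.17 (adjusted p = 0.658, 95% interval -0.57 to 0.23), and its sign depended on 1 array: it was 0.05 without dDAVP replicate 1 and -0.39 without dDAVP replicate 2. For withdrawal against vehicle it was 0.08 ± 0.17 (adjusted p = 0.995).

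The alpha subunit Scnn1a (probe set 10858871), which is needed for a channel to conduct well, did not share that order. On the log2 scale it was at 7.29 and 6.88 in the withdrawal arrays, 6.83 and 7.09 in dDAVP arrays and 7.11 and 7.22 in the vehicle arrays. Both dDAVP arrays lay below both vehicle arrays, whereas the withdrawal arrays spread across the range of the other 4. The log2 difference was 0.12 ± 0.16 for withdrawal against dDAVP (adjusted p = 0.654), -0.21 ± 0.16 for dDAVP against vehicle (adjusted p = 0.603) and -0.08 ± 0.16 for withdrawal against vehicle (adjusted p = 0.995). After cyclic loess these differences were -0.08, -0.04 and -0.12, so the first turned its sign and the second shrank. The value for dDAVP against vehicle was -0.07 without dDAVP replicate 1 and -0.34 when dDAVP replicate 2 was left out. The 95% interval of dDAVP against vehicle, 0.657 to 1.14-fold, was wide enough to hold both a fall and no change.

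**Figure D2:**
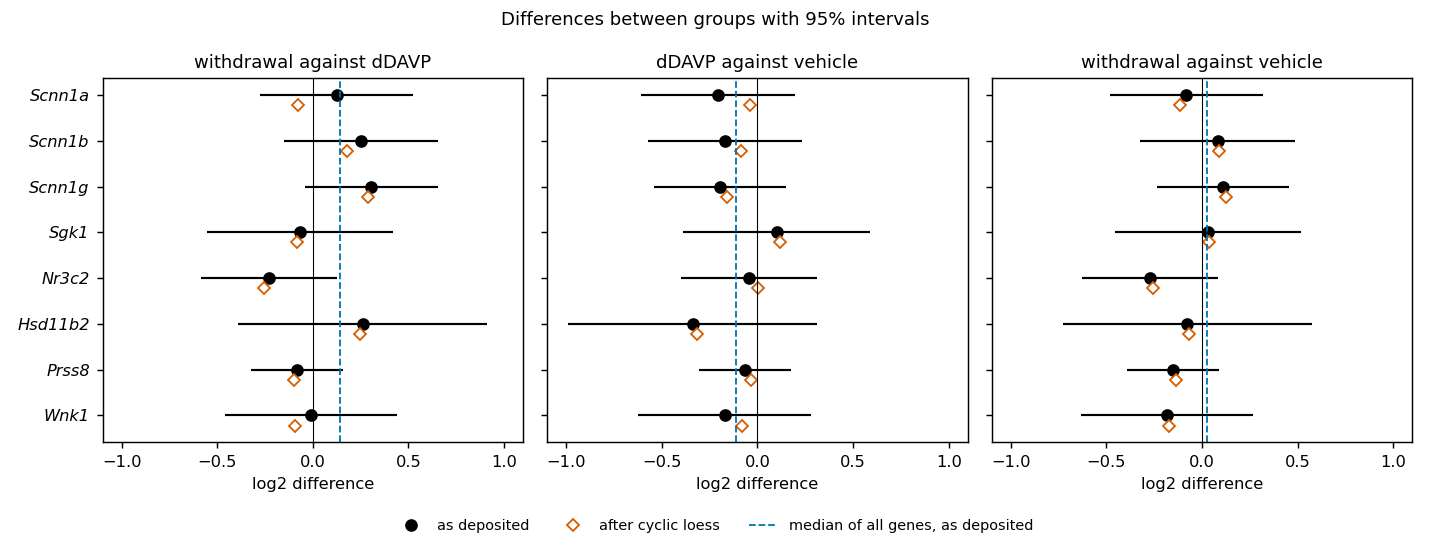
Log2 differences (horizontal axes) of the 8 genes in the 3 comparisons. Black points are the values as deposited with their 95% intervals, open diamonds the values after cyclic loess, and dashed lines the median of all genes as deposited; every interval holds 0.

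Sgk1 (probe set 10717331), the kinase that keeps the channel in the membrane, differed more within the dDAVP and vehicle groups than between group means. Its log2 intensity was 11.63 and 11.62 in the withdrawal arrays, 11.92 and 11.47 in dDAVP arrays and 11.37 and 11.82 in the vehicle arrays. The withdrawal arrays lay close together, inside the range of both other groups. Group means were 11.63 ± 0.0088 in withdrawal, 11.69 ± 0.32 in dDAVP and 11.59 ± 0.32 in vehicle (SD, n = 2 each). The log2 difference was -0.07 ± 0.20 for withdrawal against dDAVP (adjusted p = 0.851), 0.10 ± 0.20 for dDAVP against vehicle (adjusted p = 0.828, 95% interval 0.765 to 1.502-fold) and 0.03 ± 0.20 for withdrawal against vehicle (adjusted p = 0.995), and -0.08, 0.12 and 0.04 after loess. The lowest arrays were vehicle replicate 1 and dDAVP replicate 2, both below the other 4 by at least 0.15, as a pair that was above or below the rest in 23.6% of all genes. The summed intensity of the 6 measured of 7 leukocyte markers also differed more between the arrays of a group than between groups, at 3841 and 3291 in withdrawal replicates 1 and 2, 4209 and 2798 in dDAVP replicates 1 and 2, and 3038 and 4387 in vehicle replicates 1 and 2. It was lowest in the same pair of arrays, with its markers between 7.06 and 10.39 on the log2 scale. The sum was carried by the macrophage markers Cd68, C1qa and Adgre1, whereas Ptprc and the T cell marker Cd3e were highest in vehicle replicate 1, at 8.66 and 7.93. Csf1r, also a macrophage marker, was lowest in withdrawal replicate 2 (9.01), with 9.22 in vehicle replicate 1 and 9.38 in dDAVP replicate 2. Of the 9 principal cell markers, Slc14a2, Aqp4, Gata3 and Fxyd4 were also lowest in this pair. Slc14a2 was at 11.79 in vehicle replicate 1 and 11.86 in dDAVP replicate 2, against 12.30 or more elsewhere. Aqp2 and Elf5 were lowest in other arrays, Avpr2 and Tfap2b highest in dDAVP replicate 2 and Hoxb7 highest in vehicle replicate 1. The part of either cell type in the level of Sgk1 was not tested.

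Nr3c2 (probe set 10810539), the mineralocorticoid receptor, had its lowest mean in withdrawal. Arrays read, on the log2 scale, 9.03 and 8.84 in withdrawal, 8.997 and 9.33 in dDAVP and 9.29 and 9.13 in vehicle. Both withdrawal arrays lay below both vehicle arrays, and overlapped the dDAVP arrays. Means of 8.93 ± 0.14 in withdrawal and 9.21 ± 0.12 in vehicle (SD, n = 2 each) gave a log2 difference of -0.27 ± 0.15 (unadjusted p = 0.110, adjusted p = 0.995), with a 95% interval from 0.646 to 1.06-fold and -0.26 after loess. It was -0.37 without withdrawal replicate 1 and -0.18 without withdrawal replicate 2. For withdrawal against dDAVP the log2 difference was -0.23 ± 0.15 (adjusted p = 0.374, -0.26 after loess, -0.40 without dDAVP replicate 1 and -0.06 without dDAVP replicate 2) and for dDAVP against vehicle -0.04 ± 0.15 (adjusted p = 0.903, 0.0008 after loess). As with Sgk1, but in the opposite direction, vehicle replicate 1 and dDAVP replicate 2 both lay outside the other 4, here above them by at least 0.16. The summed intensity of 5 measured of 6 endothelial markers was also lowest in withdrawal, at 6115 to 6836, against 7403 to 8116 in dDAVP and 7418 to 7463 in vehicle, with its markers between 6.86 and 12.06 on the log2 scale, and its part in the level of Nr3c2 was not tested. Of these 5 markers 2 were above 0 in withdrawal against dDAVP and 0 in withdrawal against vehicle.

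Hsd11b2 (probe set 10807272), which protects the receptor from glucocorticoids, varied most of the members. Log2 intensities were 11.24 and 10.50 in the withdrawal arrays, 10.43 and 10.78 in dDAVP arrays and 11.13 and 10.76 in the vehicle arrays. The withdrawal arrays held the highest value and nearly the lowest, and all groups overlapped. The difference of dDAVP against vehicle was -0.34 ± 0.27 on the log2 scale (adjusted p = 0.601, 95% interval -0.99 to 0.31), and -0.31 after loess. The value as deposited is 1.26-fold lower in dDAVP. The log2 difference was -0.15 without vehicle replicate 1 and -0.53 without vehicle replicate 2, and -0.22 with array medians subtracted. The log2 difference of withdrawal against dDAVP was 0.26 ± 0.27 (adjusted p = 0.558), with values of 0.63 without withdrawal replicate 2 and -0.11 without withdrawal replicate 1. For withdrawal against vehicle it was -0.08 ± 0.27 (adjusted p = 0.995).

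Prss8 (probe set 10726085), which encodes prostasin, varied least. On the log2 scale it read 9.96 and 9.79 in withdrawal, 10.0002 and 9.92 in dDAVP, and 10.03 in each vehicle array. Both other groups lay below the vehicle arrays. The log2 difference was -0.15 ± 0.10 for withdrawal against vehicle (unadjusted p = 0.180, adjusted p = 0.995), -0.06 ± 0.10 for dDAVP against vehicle (adjusted p = 0.774) and -0.08 ± 0.10 for withdrawal against dDAVP (adjusted p = 0.608). The 95% interval of dDAVP against vehicle ran from 0.809 to 1.13-fold. In the order given, these differences were -0.14, -0.04 and -0.10 after loess. With single arrays left out they ran from -0.23 to -0.07, -0.10 to -0.03 and -0.17 to -0.0039.

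Wnk1, a kinase upstream of sodium and chloride transporters that also stimulates SGK1, had 2 probe sets. The brighter one (10865129) had a log2 intensity of 7.996 and 8.51 in the withdrawal arrays, 8.14 and 8.40 in dDAVP arrays and 8.46 and 8.41 in the vehicle arrays. The withdrawal arrays held both the lowest and the highest value, while both dDAVP arrays lay below both vehicle arrays. The log2 difference was -0.01 ± 0.19 for withdrawal against dDAVP (adjusted p = 0.974), -0.17 ± 0.19 for dDAVP against vehicle (adjusted p = 0.688) and -0.18 ± 0.19 for withdrawal against vehicle (adjusted p = 0.995). The value for dDAVP against vehicle was -0.04 without dDAVP replicate 1 and -0.30 when dDAVP replicate 2 was left out. The other probe set (10865163), at 6.47 to 6.67 on all arrays, gave 0.14, -0.11 and 0.03 in the same order. The probe sets thus disagreed by sign in both comparisons with withdrawal, and by most for withdrawal against vehicle. After loess the brighter one was at -0.09, -0.08 and -0.17.

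Members were also counted by whether the arrays of 2 groups overlapped, beside the share of all genes for which they did not. In withdrawal against dDAVP both arrays were higher for 2 of 8 members, Scnn1b and Scnn1g, and lower for 0, where 49.6% of all genes were separated upward and 8.06% downward (57.6% in all). After cyclic loess Scnn1g was the 1 member so separated, against 20.3% of all genes upward and 39.3% in either direction. With array medians subtracted 0 members were separated upward and 2 downward, Nr3c2 and Prss8, against 27.7% and 19.5% of all genes. In dDAVP against vehicle 3 of 8 members were separated downward, Scnn1a, Prss8 and Wnk1, and 0 upward, against 40.6% and 4.8% of all genes (45.4% in all). After loess 0 members were separated in that comparison, against 15.2% of all genes upward and 14.8% downward, 30% in all. In withdrawal against vehicle 2 of 8 were separated downward, Nr3c2 and Prss8, and 0 upward, against 13.1% and 17.6% of all genes (30.7% in all), and after loess Nr3c2 was the 1 left, against 15.9% downward, 16.1% upward and 32% in all. The median log2 difference of the 8 members was 0.06 for withdrawal against dDAVP, -0.17 for dDAVP against vehicle and -0.08 for withdrawal against vehicle, beside the 0.14, -0.11 and 0.03 of all genes. After loess the members' medians were -0.08, -0.06 and -0.09, so the first turned its sign and the second shrank. The withdrawal against dDAVP and dDAVP against vehicle comparisons share the 2 dDAVP arrays, so the low dDAVP replicate 1 enters both with opposite signs.

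Across the 6 arrays, regardless of group, the beta and gamma subunits followed each other, and Sgk1 ran the other way. Pearson's r between Scnn1b and Scnn1g was 0.958 as deposited (Spearman's rho 0.829) and 0.929 after cyclic loess. Between Scnn1b and Sgk1 it was -0.857 and -0.924, and between Scnn1g and Sgk1 -0.726 and -0.782. The alpha subunit, whose values lay below the median gene of each array, shared little of this. For Scnn1a and Scnn1b r was 0.473 as deposited and -0.044 after loess, and for Scnn1a and Scnn1g 0.609 and 0.082. Hsd11b2 correlated with Scnn1a at 0.839 (0.518 after loess) and with Scnn1g at 0.728 (0.757 after loess). These 28 pairwise values describe 6 points that share each array's RNA and normalization, they carry no test, and dDAVP replicate 1 lies at an end of the range in Scnn1b, Scnn1g and Sgk1.

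**Figure D3:**
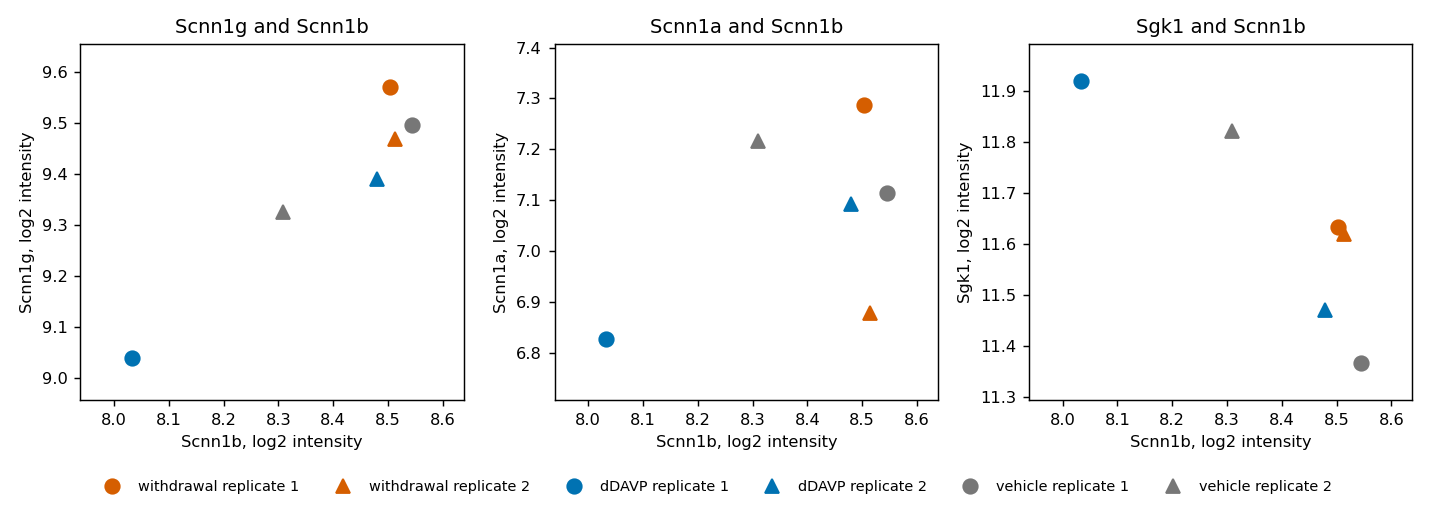
Log2 intensity of Scnn1g, Scnn1a and Sgk1 (vertical axes) against that of Scnn1b (horizontal axes), 1 point per array, coloured by withdrawal, dDAVP and vehicle group, with circles for replicate 1 and triangles for replicate 2. The points rise together for Scnn1g (r = 0.958), scatter for Scnn1a (r = 0.473) and fall for Sgk1 (r = -0.857), with dDAVP replicate 1 at the far left.

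Among 13945 other named genes, those whose log2 intensity was most like a member's over the 6 arrays had r of 0.988 or more. With 6 points such values are a description only. For Scnn1g they were Cyp4f1 (0.999), Kcnt1 (0.994) and Mapk4 (0.994), and for Scnn1b Apon (0.999), Drc1 (0.995) and Gpr119 (0.995). For Scnn1a they were Engase (0.996), Gask1b (0.989) and Stt3a (0.988), and for Sgk1 Cog8 (0.995), Kpna3 (0.993) and Mbd1 (0.992). After cyclic loess r was 0.946 to 0.993 for the 3 genes like Sgk1 and 0.831 to 0.988 for those like Scnn1a, whereas for those like Scnn1g it ran from 0.074 to 0.843 and for those like Scnn1b from 0.504 to 0.758.

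The wider pathway was read from a list of 84 genes in 7 classes, 72 of them measured. None passed at an adjusted p of 0.05 in limma. At an unadjusted p under 0.05 there were 5 higher and 2 lower in withdrawal against dDAVP (17.3% and 1.64% of all genes), 0 higher and 3 lower in dDAVP against vehicle (0.572% and 6.85%) and 1 higher and 0 lower in withdrawal against vehicle (0.642% and 1.14%). The median log2 difference of the 72 genes was 0.07, -0.08 and 0.02 in these comparisons, and -0.01, 0.02 and 0.03 after loess. Of the 72 genes 48, 24 and 43 were above 0 in these comparisons, beside 10616, 3138 and 8434 of all 14168 genes, against which the counts of each class below are to be read.

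Among the proteases and protease inhibitors that act on the channel, Tmprss4, a transmembrane serine protease known to cleave it in oocytes, had the smallest p of the whole list. Log2 intensity was 8.01 in both withdrawal arrays, 7.68 and 7.49 in dDAVP arrays and 7.59 and 7.75 in the vehicle arrays. The withdrawal arrays lay above the other 4. The log2 difference was 0.42 ± 0.11 for withdrawal against dDAVP (unadjusted p = 0.0078, adjusted p = 0.260, 0.28 after loess) and 0.34 ± 0.11 for withdrawal against vehicle (unadjusted p = 0.0210, adjusted p = 0.995, 0.33 after loess). Of the 12 measured genes of this class 9 were above 0 in withdrawal against dDAVP, 5 in dDAVP against vehicle and 11 in withdrawal against vehicle. The second smallest p was that of plasminogen, Plg (0.22 ± 0.09, and 0.01 after loess), in withdrawal against dDAVP. In dDAVP against vehicle Furin, which cleaves the alpha and gamma subunits, was at 0.40 ± 0.35 and the kallikrein Klk1 at -0.16 ± 0.14, and in withdrawal against vehicle the protease Prss22 was at 0.75 ± 0.42. Prss22 rested on withdrawal replicate 2 (9.35, against 8.01 in withdrawal replicate 1, 8.16 and 7.65 in dDAVP and 7.88 and 7.98 in vehicle).

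The ubiquitin and trafficking genes, whose products set how long the channel stays in the membrane, had 11 of 12 members measured. Ndfip1, an adaptor that activates Nedd4-family ligases, was at 11.61 and 11.47 in the withdrawal arrays, 11.82 and 11.83 in dDAVP arrays and 11.72 and 11.75 in the vehicle arrays. Both withdrawal arrays were below the other 4, with a log2 difference of -0.29 ± 0.09 against dDAVP (unadjusted p = 0.0202, adjusted p = 0.260, -0.31 after loess) and -0.20 ± 0.09 against vehicle (adjusted p = 0.995). The ligase Nedd4 was at -0.23 ± 0.09 in withdrawal against vehicle (unadjusted p = 0.0501, adjusted p = 0.995), and also below the other 4 arrays. Nedd4l, which encodes NEDD4-2 and was chosen for its role after its values were seen, was at -0.01 ± 0.15, -0.01 ± 0.15 and -0.02 ± 0.15 in withdrawal against dDAVP, dDAVP against vehicle and withdrawal against vehicle. The deubiquitinase Usp10 was at -0.35 ± 0.16 in withdrawal against dDAVP and 0.26 ± 0.16 in dDAVP against vehicle, and the casein kinase subunit Csnk2a1 at -0.27 ± 0.18 in dDAVP against vehicle, with none passing. Medians of the class were 0.04, -0.03 and 0.02.

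Of the Sgk1 and WNK kinase class 13 of 18 genes were measured. Mapkap1, a subunit of the mTORC2 complex that phosphorylates SGK1, was at 9.55 and 9.60 in the withdrawal arrays, 9.85 and 9.97 in dDAVP arrays and 9.89 and 9.73 in the vehicle arrays. It was thus lower in both withdrawal arrays than in any other, by -0.33 ± 0.10 on the log2 scale against dDAVP (unadjusted p = 0.0177, adjusted p = 0.260, -0.35 after loess) and -0.23 ± 0.10 against vehicle (adjusted p = 0.995). The G protein-coupled receptor kinase Grk2 was at -0.19 ± 0.10 in withdrawal against dDAVP, the AMP-activated kinase subunit Prkaa1 at -0.40 ± 0.17 in withdrawal against vehicle, and Mtor at -0.18 ± 0.11 and Sgk2 at -0.17 ± 0.11 in dDAVP against vehicle (-0.09 and -0.0089 after loess). The difference of Prkaa1 was -0.16 without vehicle replicate 1, its highest array, and -0.645 without vehicle replicate 2. No gene of the class passed, and 7, 6 and 7 of the 13 were above 0 in withdrawal against dDAVP, dDAVP against vehicle and withdrawal against vehicle.

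The class of steroid receptors and aldosterone response genes held all 3 of the pathway genes with an unadjusted p under 0.05 in dDAVP against vehicle. Fkbp5, a glucocorticoid-induced chaperone of steroid receptors, had a log2 intensity of 8.56 and 8.51 in withdrawal, 8.23 and 8.17 in dDAVP and 8.42 and 9.05 in vehicle. Both dDAVP arrays were the lowest, and vehicle replicate 2 was the highest array. The log2 difference of dDAVP against vehicle was -0.54 ± 0.20 (unadjusted p = 0.0337, adjusted p = 0.549, -0.46 after loess), and -0.23 without vehicle replicate 2. The transcription factor Zbtb16 was at -0.28 ± 0.09 (adjusted p = 0.549) and -0.12 after loess. Dot1l, a histone methyltransferase linked in mouse collecting duct cells to repression of the alpha subunit gene, was at 7.05 and 7.15 in withdrawal, 6.77 and 6.78 in dDAVP and 7.03 and 6.99 in vehicle. Its log2 difference was 0.32 ± 0.09 for withdrawal against dDAVP (unadjusted p = 0.0109, adjusted p = 0.260) and -0.24 ± 0.09 for dDAVP against vehicle (adjusted p = 0.549), and 0.12 and -0.07 after loess. The chaperone Fkbp4 was at 0.23 ± 0.11 in withdrawal against dDAVP, and the glucocorticoid receptor Nr3c1 at -0.15 ± 0.10 and Zbtb16 at -0.10 ± 0.09 in withdrawal against vehicle. Of the 10 measured genes 2 were above 0 in dDAVP against vehicle and 8 in withdrawal against dDAVP, with medians of -0.03 and 0.02 after loess.

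**Figure D4:**
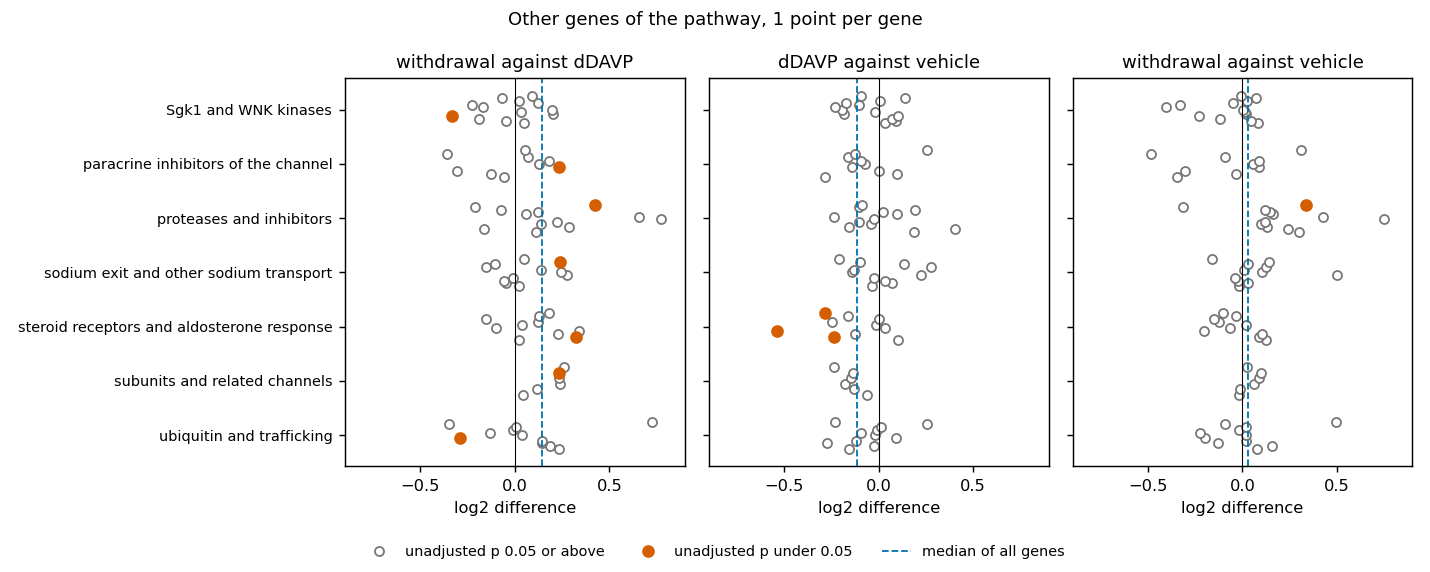
Log2 differences (horizontal axes) of the 72 measured pathway genes by class in the 3 comparisons, 1 point per gene. Filled points have an unadjusted p under 0.05 (7 in withdrawal against dDAVP, 3 in dDAVP against vehicle and 1 in withdrawal against vehicle), and dashed lines mark the median of all genes.

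In the remaining classes no gene passed an adjusted p of 0.05. Of the 11 measured genes of sodium exit and other sodium transport, the sodium-chloride cotransporter Slc12a3, itself a marker of the distal convoluted tubule, was at 0.24 ± 0.10 in withdrawal against dDAVP (unadjusted p = 0.0469, adjusted p = 0.261) and 0.03 after loess, and at 0.14 ± 0.10 in withdrawal against vehicle. Of its potassium channels, Kcnj10 was at 0.24 ± 0.12 in withdrawal against dDAVP and -0.14 ± 0.12 in dDAVP against vehicle (0.06 and 0.02 after loess), and Kcnj1 at 0.50 ± 0.41 in withdrawal against vehicle, and the sodium-proton exchanger Slc9a3 was at -0.21 ± 0.14 in dDAVP against vehicle (-0.04 after loess). Fxyd4 was within 0.04 of 0 in each comparison. All 6 related channels, members of the acid-sensing family and Cftr, were above 0 in withdrawal against dDAVP and below 0 in dDAVP against vehicle, and their medians of 0.23 and -0.14 became 0.02 and 0.02 after loess. Asic5 had the smallest p of them in withdrawal against dDAVP (0.24 ± 0.09, adjusted p = 0.260, 0.02 after loess) and was at 0.10 ± 0.09 in withdrawal against vehicle, where Asic4 was at 0.09 ± 0.11. Cftr was at 0.26 ± 0.12 in withdrawal against dDAVP and -0.24 ± 0.12 in dDAVP against vehicle (0.05 and -0.09 after loess), where Asic3 was at -0.18 ± 0.11. Among 9 measured genes of paracrine inhibition of the channel, the ATP receptor P2ry4 was at 0.23 ± 0.09 in withdrawal against dDAVP (unadjusted p = 0.0475, adjusted p = 0.261) and 0.02 after loess, and the kinase Prkg1 at 0.18 ± 0.09. The prostaglandin receptor Ptger3 was at 0.31 ± 0.15 in withdrawal against vehicle and 0.26 ± 0.15 in dDAVP against vehicle, and both were somewhat larger after loess, at 0.33 and 0.30. Endothelin, Edn1, was at -0.35 ± 0.19 and -0.29 ± 0.19 in these comparisons, and -0.38 and -0.12 after loess. Without vehicle replicate 1, its highest array at 7.66, the values were -0.11 and -0.05. Without vehicle replicate 2 they were -0.58 and -0.52.

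The V2 receptor and the water channel it controls, which are outside the pathway list and its counts, were read as collecting duct genes. Avpr2 had a log2 intensity of 11.45 and 11.04 in the withdrawal arrays, 11.63 and 11.71 in dDAVP arrays and 11.59 and 11.32 in the vehicle arrays. Both dDAVP arrays were the highest, with a log2 difference of -0.43 ± 0.16 for withdrawal against dDAVP (unadjusted p = 0.0381, adjusted p = 0.260) and 0.22 ± 0.16 for dDAVP against vehicle (adjusted p = 0.584), -0.44 and 0.24 after loess. With single arrays left out, these ran from -0.63 (without withdrawal replicate 1) to -0.23 (without withdrawal replicate 2), and from 0.09 (without vehicle replicate 2) to 0.35 (without vehicle replicate 1). Aqp2 was at -0.16 ± 0.10 in withdrawal against dDAVP (adjusted p = 0.343), 0.15 ± 0.10 in dDAVP against vehicle (adjusted p = 0.558) and -0.01 ± 0.10 in withdrawal against vehicle. After loess Aqp2 was at -0.18, 0.17 and -0.01.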

How the data were processed

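Affymetrix whole-transcript arrays were hybridised with label made from 300 ng of total RNA, per the labels' protocols. RMA is named in the submitters' processing notes, and the authors deposited 1 linear intensity per probe set and array, from 30.2 to 10778.7. For neither its version nor the genome build is anything given in the sources used here. RMA usually includes a step that equalises arrays, yet the medians of the deposited arrays ran from 156 to 182. Detection calls and scan dates were not used here, so batches and the distance to background are unknown.

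The log2 of each intensity was taken. Of 28524 probe sets, 14947 carried 1 gene symbol in the array's annotation, 318 carried several and 13259 were not listed. Entrez numbers of 14916 were found in the RefSeq table of GRCr8, which changed 0 symbols. The brightest probe set represented each of 14168 genes, 509 of which had more than 1. No filter was applied.

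A model holding 1 mean for each group used all 6 arrays in limma 3.58.1 in R 4.3.3 (3 residual and 3.21 prior degrees of freedom), two-sided, with Benjamini-Hochberg adjustment over all genes within each of 3 comparisons and for a moderated F-test, at a threshold of 0.05. The fit was tested on simulated data for dDAVP against vehicle. At an adjusted p under 0.05 limma recovered 18% of the changes of 0.5 on the log2 scale and 70% of those of 1. Among genes given no change, 5 passed. Smaller changes were not simulated, nor were shifts shared by many genes of an array, which the real arrays show. The members and gene lists were chosen with earlier results of these data known. All 8 members were named, and of each pathway class the 2 genes with the smallest p per comparison, beside Aqp2, Avpr2 and Fxyd4 and the 3 genes most like each subunit and Sgk1. Alternatives were other normalizations, a filter on dim genes, other samples or priors in the fit, averaged probe sets, a replicate block and arrays left out.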

Additional observations from a re-analysis of the deposited data

How the results depend on the processing

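No member and no pathway gene passed an adjusted p of 0.05 under any alternative run. Without dDAVP replicate 1, 2 genes outside the lists passed in each comparison with dDAVP, where the counts over single arrays left out ran from 0 to 2. Same-numbered arrays did not deviate together: the correlation of their deviations was -0.111 for withdrawal and dDAVP, -0.623 for dDAVP and vehicle and -0.002 for withdrawal and vehicle. In dDAVP and vehicle, opposite-numbered arrays thus tended to deviate together. The replicate block joins same-numbered arrays, so it does not take up that crosswise pattern. With the replicate block 0 genes passed in any comparison, and 1518, 490 and 128 genes had an unadjusted p under 0.05, against 2686, 1052 and 253 without it.

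With array medians subtracted, dDAVP against vehicle gave 0.0737 for Nr3c2 and 0.0523 for Prss8. After cyclic loess it gave 0.0008 for Nr3c2, 0.0213 for Kcnj10 and 0.0040 for Klk1, and quantile normalization gave 0.0218 for Kcnj10 and 0.0128 for Klk1. In withdrawal against dDAVP, Scnn1a was at -0.08 after loess and -0.10 after quantile normalization, Prkg1 at -0.0155 and -0.0226, and Asic5, P2ry4 and Plg at -0.0020, -0.0068 and -0.0113 after quantile normalization. Averaging the probe sets of Wnk1 gave 0.0648.

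With single arrays left out, withdrawal against dDAVP ran from -0.0801 to 0.33 for Scnn1a, -0.29 to 0.16 for Sgk1, -0.11 to 0.63 for Hsd11b2 and -0.27 to 0.25 for Wnk1. dDAVP against vehicle ran from -0.39 to 0.053 for Scnn1b, -0.13 to 0.33 for Sgk1, -0.21 to 0.12 for Nr3c2, -0.11 to 0.91 for Furin, -0.29 to 0.0006 for Kcnj10 and -0.32 to 0.0079 for Klk1. Withdrawal against vehicle ran from -0.29 to 0.12 for Scnn1a, -0.0361 to 0.20 for Scnn1b, -0.20 to 0.26 for Sgk1, -0.44 to 0.29 for Hsd11b2, -0.44 to 0.0754 for Wnk1, -0.0569 to 0.0369 for Aqp2, -0.028 to 0.20 for Asic4 and -0.16 to 1.16 for Kcnj1. Without both vehicle replicate 1 and dDAVP replicate 2, Wnk1 was at 0.12 in withdrawal against dDAVP, and Sgk1, Hsd11b2 and Kcnj1 at -0.20, 0.11 and -0.16 in withdrawal against vehicle. The cause of these turns was not tested. A lone array left in a group is assumed to vary like the other groups, and dim probe sets are limited by their unknown distance to background.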
